A study of Drosophila melanogaster with 8 samples.

Results

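The Antennapedia complex is the anterior of the 2 Hox clusters of Drosophila melanogaster and lies on chromosome arm 3R. Its H3K27me3 was examined in testes of comr and can mutant males. It was taken as the rows of both deposited profiles that start from 2.48 to 2.83 Mb of 3R (build dm3). With 1 kb windows that do not overlap, this gave 349 windows of the 114670 on the 6 main sequences of the genome and left 26782 on the rest of 3R. The 4 groups of the study were H3K27me3 chromatin from comr testes, input chromatin from comr testes, H3K27me3 chromatin from can testes and input chromatin from can testes, with 2 biological replicates each. All flies were adult males, 3 days old, kept at 23 °C and homozygous for the comr or the can mutation, and 400 testes were the starting material. No allele is named in the labels, and no wild-type profile was analysed here, so each mutant is set only against the other. For each genotype the authors deposited a single profile that combines its libraries, which leaves no spread between replicates and allows no test. The read depth behind a score is unknown.

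Hox genes encode homeodomain transcription factors that give body segments their identity, and Polycomb group proteins keep them silent where they are not needed. Polycomb repressive complex 2 trimethylates lysine 27 of histone H3 over such genes, and the resulting H3K27me3 covers whole clusters rather than single promoters. Along 3R the 8 genes follow the order lab, pb, zen, bcd, Dfd, Scr, ftz, Antp, from low to high coordinates, by the RefSeq table of the Release 6 assembly. lab (labial) and pb (proboscipedia) act in the head and mouthparts, Dfd (Deformed) in the maxillary and mandibular segments, Scr (Sex combs reduced) in the labium and first thoracic segment, and Antp (Antennapedia) in the thorax. zen, bcd and ftz are homeobox genes of the cluster without a homeotic role: zen patterns the dorsal side of the embryo, bcd (bicoid) is the maternal anterior morphogen, and ftz (fushi tarazu) is a pair-rule segmentation gene. The same table lists 43 genes from lab to Antp, among them 7 Ccp84A cuticle genes between lab and pb, 4 tRNA genes between Dfd and Scr, and 16 long noncoding RNAs. That table belongs to another build than the profiles, so no gene was given a score of its own, and positions are those of dm3. comr encodes a subunit of tMAC and can a testis-specific TBP-associated factor. In either mutant, spermatogenesis stops at the spermatocyte stage. Whole testes were used, so a lower mark per cell and fewer cells that carry it cannot be told apart.

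H3K27me3 was high across most of the Antennapedia complex in both mutants, and higher in comr than in can. The mean score, H3K27me3 over input on the deposited normalized scale, was 0.53 in comr testes and 0.37 in can testes, against 0.03 in both over the rest of 3R. The SD over the 349 windows was 0.49 in comr and 0.50 in can, and the SD over the 35 bins of 10 kb was 0.23 in comr and 0.16 in can. These errors describe scatter along the chromosome within a profile, not spread between animals. A score above 0 was found in 85.4% of the complex's windows in comr and 78.2% in can, against 52.0% and 51.9% of windows on the rest of 3R. Single windows reached from -1.48 to 2.10 in comr and from -1.12 to 2.93 in can, so the raised mean came with wide scatter from window to window. Of the 35 bins, 33 were above 0 in comr and all 35 in can, where 52.1% and 53.2% of the bins on the rest of 3R were above 0. The median bin of the complex stood at 0.54 in comr and 0.37 in can, and 4.84% and 7.57% of the 2708 other 3R bins exceeded it in comr and can.

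**Figure D1:**
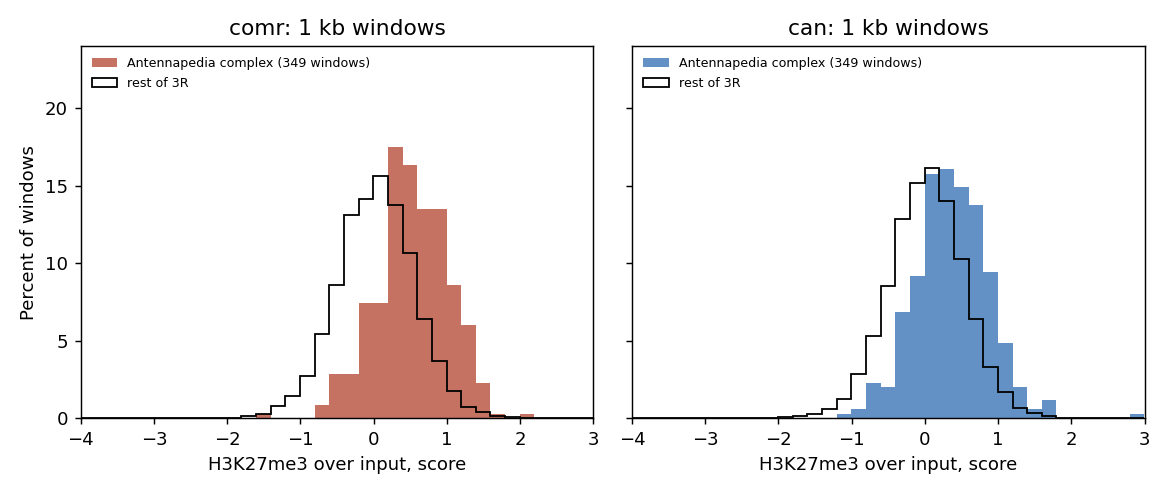
Percent of 1 kb windows (vertical axis) by H3K27me3 over input score (horizontal axis) in comr (left) and can (right), for the Antennapedia complex (filled) and the rest of 3R (outline). The filled distributions sit to the right of the outlines, with means of 0.53 in comr and 0.37 in can against 0.03 on the rest of the arm.

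Enriched windows, defined in each mutant as the highest 10% over the main sequences (a score of at least 0.71 in comr and 0.72 in can), were over-represented in the complex. They numbered 123 of 349 in comr (35.2%), where 9.42% of windows on the rest of 3R were enriched. In can they numbered 77 (22.1%), against a background of 8.43%. Windows enriched in both mutants numbered 46 (13.2%), against 2.09% on the rest of 3R. These 46 were 37.4% of the windows enriched in comr and 59.7% of those enriched in can, shares that are larger wherever more windows are enriched. Another 77 windows were enriched in comr alone, 31 in can alone and 195 in neither.

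The complex had the highest mean of the 80 consecutive 350 kb stretches of 3R in both profiles. The other 79 stretches ranged from -0.29 to 0.35 in comr, with a median of 0.02, and from -0.26 to 0.35 in can, with a median of 0.01. In the plot of stretches the complex lies apart from the other points in comr. In can the stretch from 26.98 to 27.33 Mb came close to it, with 0.27 in comr and 0.35 in can. When stretches were instead laid every 10 kb over the arm without touching the complex, none of 2701 exceeded it in comr and 2 did in can. The highest of these in comr, with 0.41, ran from 12.47 to 12.82 Mb and held the Bithorax complex, the posterior Hox cluster with Ubx, abd-A and Abd-B. The highest in can, with 0.37, ran from 27 to 27.35 Mb, where comr scored 0.26.

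**Figure D2:**
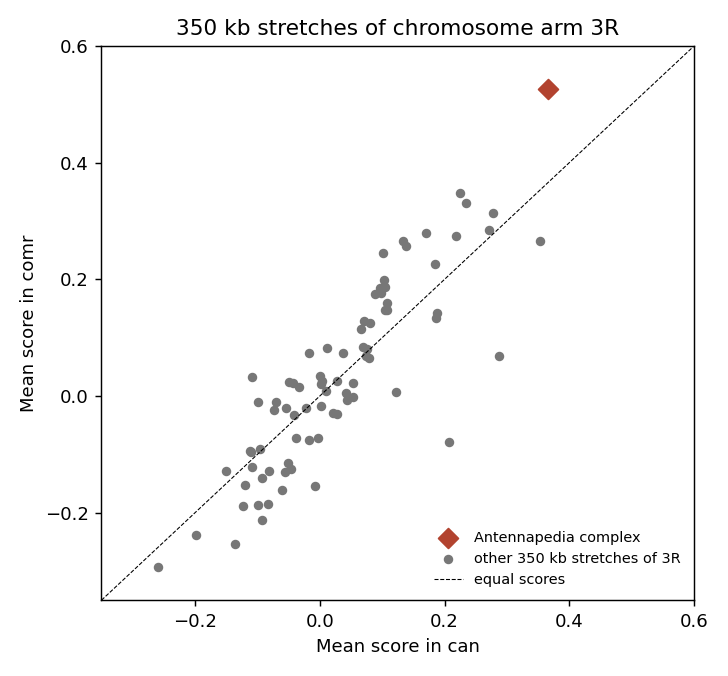
Mean score in comr (vertical axis) against mean score in can (horizontal axis) for 80 stretches of 350 kb on 3R; the diamond is the Antennapedia complex, circles are the other 79 and the dashed line marks equal scores. The complex lies at 0.53 in comr and 0.37 in can, above the line and above all other stretches in comr.

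Over the complex the score in comr exceeded that in can by 0.16 ± 0.03 (standard error over 349 windows, or over 35 bins). comr was higher in 26 of the 35 bins, where 50.3% of bins on the rest of 3R were higher in comr. The mean difference over the rest of 3R was 0.00. The direction alone was not particular to the complex. comr was also higher in 24 of 35 bins of the 350 kb on its low-coordinate side and in 21 of 35 on its high-coordinate side. The mean differences there were smaller, at 0.05 ± 0.03 and 0.04 ± 0.03 (standard errors over windows). Within the complex a difference of at least 0.3 was found in 12 bins (34.3%), against 10.2% of bins on the rest of the arm. A difference of -0.3 or lower was found in 1 bin (2.86%), against 9.60%. By single windows the direction was less uniform, with 205 of 349 higher in comr (58.7%), 139 lower and 5 tied, against 50.1% higher in comr on the rest of 3R. The excess was the largest of the 80 stretches, of which the others ranged from -0.29 to 0.14. That rank depends on where the stretches were laid. A border at 12.63 Mb cut the Bithorax complex, and the stretches on its 2 sides had differences of 0.13 and 0.09. Among the 10 other stretches with the highest mean of both profiles, 9 were higher in comr, and the differences ran from -0.09 to 0.13 with a median of 0.08.

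The Bithorax complex, taken as rows from 12.48 to 12.81 Mb from general knowledge of dm3, had a lower mean than the Antennapedia complex and a wider gap between the mutants. It scored 0.43 in comr and 0.18 in can over 325 windows, a difference of 0.25 ± 0.03 (standard error over windows). comr was higher in 28 of its 33 bins, and 29.2% of its windows were enriched in comr and 17.2% in can. Of the 2701 stretches laid every 10 kb, 33 had a larger excess in comr than the Antennapedia complex, and the largest, at 0.25, ran from 12.48 to 12.83 Mb. An excess in comr was therefore measured over both Hox clusters. How it compares with the spread between replicates is not known, since these were deposited combined. Both profiles were also normalized to the same set of values, so an excess at one place has to be offset elsewhere.

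Along the complex the excess in comr was small on the lab side and larger on the Antp side, while the score in can was level. In 70 kb sections from the lab end to the Antp end, comr scored 0.45, 0.43, 0.49, 0.61 and 0.65. In can the same sections scored 0.36, 0.38, 0.35, 0.38 and 0.35. The difference, comr minus can, was 0.10 ± 0.07 in the section at the lab end, 0.04 ± 0.08 in the next, 0.14 ± 0.07 in the middle, 0.23 ± 0.07 in the fourth and 0.29 ± 0.06 at the Antp end (standard errors over 69 or 70 windows). All 7 bins were higher in comr in each of the last 2 sections, against 4, 3 and 5 of 7 in the first, second and middle ones. The 140 kb on the Antp side scored 0.63 in comr and 0.37 in can, and the 140 kb on the lab side 0.44 in comr and 0.37 in can. The Antp side thus exceeded the lab side by 0.19 ± 0.05 in comr, while in can the sides differed by 0.00 ± 0.06, and the gap between mutants was wider there by 0.19 ± 0.07. The contrast of the sides was chosen after their values were seen. Sections of 50 kb gave a less even order, with differences of 0.03, 0.04, 0.23, 0.07, 0.22, 0.25 and 0.30.

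**Figure D3:**
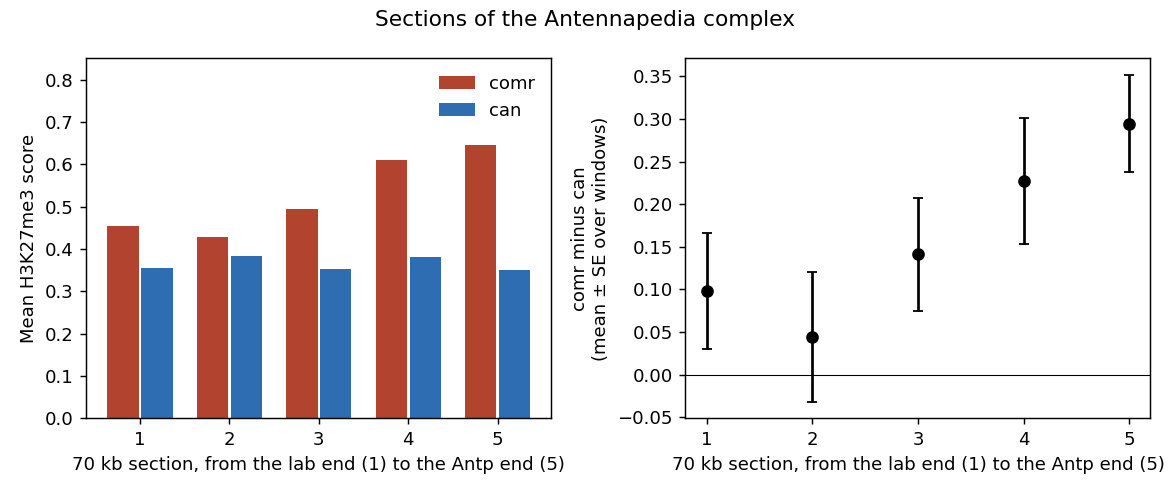
Left, mean H3K27me3 score (vertical axis) of 5 sections of 70 kb, from the lab end to the Antp end, in comr and can; right, comr minus can with the standard error over windows. can stays between 0.35 and 0.38, and comr goes up to 0.65 in the section at the Antp end.

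The profile of can varied along the complex by no more than its window scatter gives. Means of 10 windows with the window SD of can would scatter by 0.16, and the 35 bins of can scattered by 0.16. In comr the corresponding value was 0.16 and the bins scattered by 0.23. Bins on the rest of 3R also scattered less in can (0.24) than in comr (0.30), and more than within the complex in both. Neighbouring windows correlated at 0.13 in comr and 0.00 in can within the complex, against 0.29 and 0.20 over the rest of 3R. Between the mutants, scores correlated within the complex at r = 0.32 over windows (Spearman's rho = 0.32) and at r = 0.52 over bins (rho = 0.50). Over the rest of 3R the values were 0.33 and 0.64 (rho = 0.32 and 0.62). These coefficients describe positions of a chromosome, which share libraries and are not replicates.

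By the mean of both profiles, 4 of the 5 highest bins lay from the middle of the complex to the Antp side. That part holds most of the 35 bins of the complex. By can alone, with the windows used here, the highest bins lay mainly on the lab side. Those from 2.56, 2.52, 2.51 and 2.55 Mb scored 0.64, 0.61, 0.60 and 0.58 in can. Only the bin from 2.73 Mb, at 0.60 in can, ranked among them from the Antp side. The bin from 2.65 to 2.66 Mb scored 0.85 in comr and 0.51 in can, and 8 of its 10 windows were enriched in comr and 3 in can. The adjacent bins from 2.73 Mb and from 2.74 Mb scored 0.73 and 0.89 in comr, and 0.60 and 0.43 in can. The bin from 2.77 Mb scored 0.81 in comr and 0.51 in can, with no window below 0 in either mutant. The last of the 5 by the mean of both, from 2.56 Mb on the lab side, scored 0.61 in comr and 0.64 in can. In can its highest window reached 2.93, and without that window the bin averaged 0.50 in comr and 0.35 in can. That window, from 2563050 to 2564049, was the highest of the complex in can and scored 1.49 in comr. It borders a run of 10 absent rows, from 2563700 to 2564600. The second highest window in can, from 2503050 to 2504049 near the lab end, scored 1.52 in comr and 1.70 in can. In comr the highest windows were those from 2787050 to 2788049, with 2.10 in comr and 0.96 in can, and from 2748050 to 2749049, with 1.69 and 0.62 in comr and can.

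**Figure D4:**
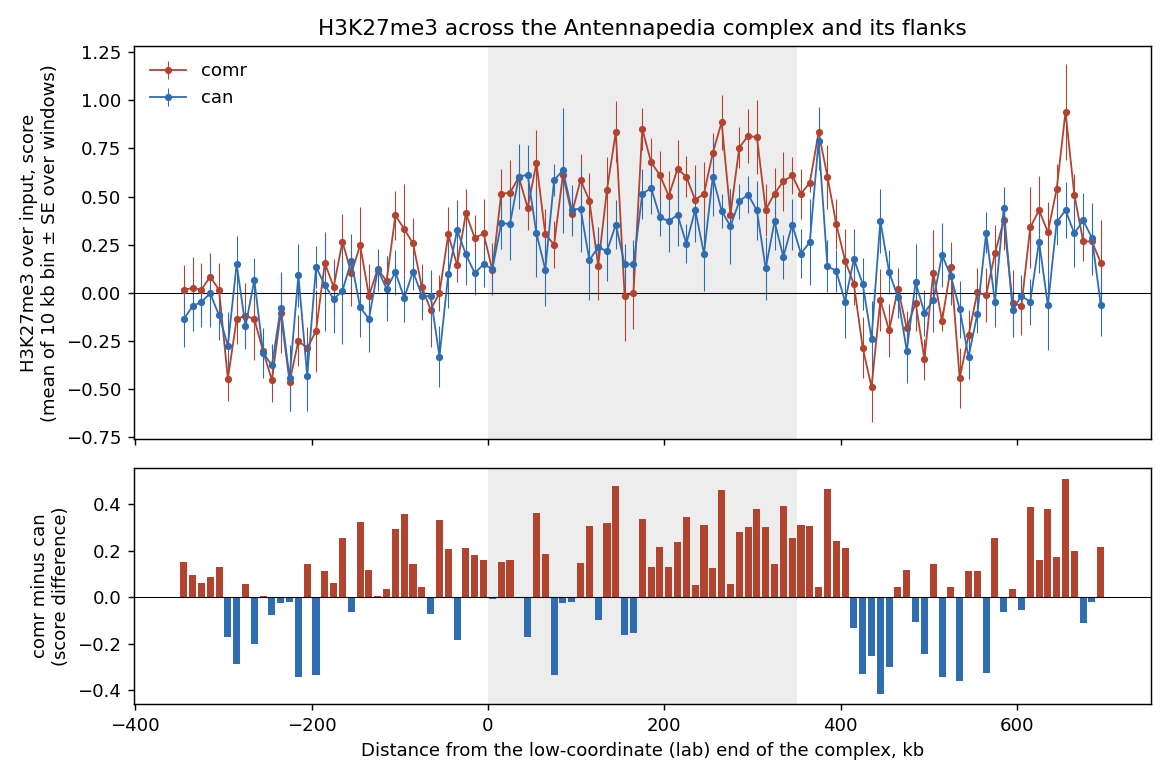
Upper panel, mean H3K27me3 score of 10 kb bins with the standard error over windows (vertical axis) in comr and can, against distance from the low-coordinate end of the complex in kb; the shaded 350 kb are the complex. Lower panel, comr minus can per bin, red where comr is higher and blue where can is higher; both mutants are below their mean 150 to 170 kb into the complex, and the raised stretch runs past its high-coordinate end.

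The score in comr was low near the middle of the complex, and which bin was lowest depended on the rows used. In can the bins there were below its mean of 0.37 but, with the windows used here, were not its lowest. The bins from 2.54, 2.48 and 2.79 Mb were lower in can (0.12, 0.12 and 0.13), and its bins scattered no more than windows give. From 2.63 to 2.65 Mb the mean over 20 windows was -0.01 in comr and 0.15 in can, a difference of -0.16 ± 0.15 (standard error over windows). The windows ran from -1.48 through a median of 0.00 to 1.39 in comr, and from -0.55 through a median of 0.21 to 0.81 in can. Enriched windows numbered 2 in comr and 1 in can, and 10 windows were below 0 in comr and 7 in can. These 20 kb were the only bins of the complex whose mean was not above 0 in comr, and with rows starting at each kb their means in comr were 0.19 and 0.02, and in can 0.08 and 0.05. The lowest window of the complex in comr, from 2632050 to 2633049, scored -1.48 in comr and 0.38 in can. A run of 5 absent rows, from 2646000 to 2646400, lay in this stretch. The bins on either side were among the highest in comr, with 0.84 from 2.62 to 2.63 Mb and 0.85 from 2.65 to 2.66 Mb. In can these neighbouring bins stood at 0.35 and 0.51. The remaining low bins lay elsewhere. The first bin of the complex, from 2.48 Mb, scored 0.12 in both mutants, the bin from 2.60 Mb scored 0.14 in comr and 0.24 in can, and the bin from 2.54 Mb scored 0.31 in comr and 0.12 in can. With rows starting at each kb, comr scored 0.06 in the bin from 2.48 Mb and 0.05 in the bin from 2.60 Mb, both below its 0.19 in the bin from 2.63 Mb.

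The largest excesses in comr were in the bins from 2.62, 2.74 and 2.81 Mb. From 2.62 to 2.63 Mb the windows in comr ran from 0.06 through a median of 0.90 to 1.46, and in can from -0.37 through a median of 0.34 to 0.89. The ranges overlapped, and comr was higher in 8 of the 10 windows, by 0.48 ± 0.12 on average. From 2.74 to 2.75 Mb the windows ran from 0.14 to 1.69 in comr (median 0.91) and from -0.11 to 0.81 in can (median 0.46), again with 8 of 10 higher in comr and a difference of 0.46 ± 0.12. The bin from 2.81 Mb, near the Antp end, scored 0.58 in comr and 0.19 in can, a difference of 0.39 ± 0.16. In the other direction, the bin from 2.55 to 2.56 Mb scored 0.25 in comr and 0.58 in can. There comr was higher in only 1 of 10 windows, and the difference was -0.34 ± 0.12. The next deficits, -0.17 ± 0.15 in the bin from 2.52 Mb and -0.16 ± 0.25 in the bin from 2.63 Mb, were smaller, and the last was 0.10 with rows starting at each kb. These standard errors come from neighbouring windows of the same profiles and do not test a bin. The bins were ranked by the values given.

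Joined stretches of enriched windows, with gaps of up to 3 kb and a length of at least 5 kb, are called domains here. They covered 57.1% of the complex in comr and 29.1% in can, against 9.0% and 5.62% of the rest of 3R. comr had 13 domains of 5 to 37 kb and can had 10 of 5 to 23 kb. Domains of can covered 36.0% of the length in comr domains, against 29.1% of the whole complex. Domains of comr covered 70.6% of the length in can domains, against 57.1% of the whole complex. The longest in comr, from 2717050 to 2754049 (37 kb), scored 0.72 in comr and 0.46 in can. It was followed by the domain from 2762050 to 2791049 (29 kb), with 0.84 in comr and 0.47 in can. Both lay on the Antp side. In can the longest domain was on the lab side, from 2508050 to 2531049 (23 kb), with 0.52 in comr and 0.62 in can. The other 9 of can spanned 5 to 14 kb. Since a domain is built from high windows of its own profile, its score there was raised by the choice. The can mean ran from 0.23 to 1.08 over the 13 comr domains. The 1.08 belonged to the domain from 2563050 to 2568049, whose 4 windows included the one at 2.93 in can. The next highest can mean over a comr domain was 0.55. Over the 10 can domains the comr mean ran from 0.40 to 0.91. Most bins of the complex were above 0 in both mutants anyway.

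The raised stretch had no clear start at the low-coordinate end of the complex and continued beyond its high-coordinate end. Outside the low-coordinate end, the bin from 2.37 Mb scored 0.40 in comr and 0.11 in can. The bin from 2.41 Mb scored -0.09 in comr and -0.02 in can. On the low-coordinate side the 50 kb from 2.43 to 2.48 Mb scored 0.29 in comr and 0.17 in can, and the first bin of the complex 0.12 in both. The 10 kb after it scored 0.52 in comr and 0.36 in can. On the high-coordinate side the 50 kb from 2.83 to 2.88 Mb scored 0.58 in comr and 0.30 in can, a difference of 0.27 ± 0.08 and close to that of the last section of the complex. Within it the bin from 2.85 Mb reached 0.83 in comr and 0.79 in can. From 2.90 to 2.95 Mb the means were -0.20 in comr and 0.05 in can, and no window was enriched in comr while 5 of 50 were in can. In these 50 kb the sign of the difference was reversed, at -0.25 ± 0.08, but not along the whole flank. comr was higher in 21 of the 35 bins of the high-coordinate flank. Its bin from 3.13 Mb scored 0.94 in comr and 0.43 in can, above the highest bin of the complex in comr (0.89). The 50 kb stretches beside the complex and the single bins of the flanks were chosen after their values were seen. The whole 350 kb flank averaged 0.02 in comr and -0.03 in can on the low-coordinate side, and 0.15 in comr and 0.11 in can on the high-coordinate side.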

How the data were processed

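H3K27me3 ChIP and input libraries of adult testes were sequenced, per the labels' protocols. Per the file headers, the deposited score is the quotient of H3K27me3 and input over 1000 bp, after which a step named QN was applied. It lies on both sides of 0, from -5.58 to 4.27, and since no header or label names its scale, differences and no folds are reported. The sorted values of both profiles were identical, so a change in the total mark cannot be read from them. Positions are on dm3, a build named in the submitters' processing notes. Alignment and the merging of the 2 replicates are steps that neither headers nor labels describe. Rows are 100 bp apart, and the row at 500 bp of each kb served as a 1 kb window; 15 of 3501 row positions in the complex were absent. Bins of 10 kb with at least 5 windows, 70 kb sections and 350 kb stretches were laid from 2.48 Mb. Window coordinates are centred on the row.

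The 5 highest and 5 lowest bins, the 3 largest differences in each direction, the domains and the 2 highest windows per profile were chosen for naming. Members, thresholds and this rule were chosen with earlier results of these data known. With 1 profile per genotype there was no test. The scripts were tested on simulated data. The labelled tissue could not be checked by marker genes, since no annotation of dm3 was at hand. Python 3.11.15, numpy 2.4.6, pandas 2.3.3, scipy 1.17.1 and matplotlib 3.10.9 were used.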

Additional observations from a re-analysis of the deposited data

How the results depend on the processing

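No paired analysis was possible because a genotype's libraries stand behind a single deposited profile, which also means that none could be left out. The replicate block was therefore not run. Means and the difference moved by less than their 95% interval with other rows, medians or shifted boundaries. That interval was computed over windows, so it describes scatter along the chromosome, and these settings share most of the same sequence. Enriched windows came to 19.8% in comr, 12.0% in can and 4.58% in both at the top 5%, against 4.17%, 3.72% and 0.620% on the rest of 3R. With the top 20% they made up 55.9%, 39.8% and 28.9%, against 19.5%, 18.9% and 6.72%. The ratio of the complex to the rest was 3.74 in comr and 2.62 in can at the top 10%. It was 2.86 and 2.11 at the top 20%. Domains numbered 5 in can (top 5%), 7 in comr (top 20%), and 2 in comr and 0 in can with no gaps joined, where they covered 2.86% and 0.000%. Their coverage of the complex in comr and can was 22.6% and 16.3% with the top 5% and 88.6% and 65.1% with the top 20%. It was 55.7% in can with gaps of at most 5 kb, so the extent of domains depends on the threshold and the joining. Coverage of the rest of 3R was not computed at these settings. The correlation was 0.47 in 5 kb bins and 0.52 in 10 kb bins. In can the complex ranked 3 with stretches laid every 10 kb. With rows starting at each kb the difference in the bin from 2.56 Mb was 0.15 and that in the bin from 2.63 Mb was 0.10, both of opposite sign, and comr scored 0.187 and 0.0211 in the bins from 2.63 Mb and 2.64 Mb. With all overlapping rows the difference in the bin from 2.56 Mb was 0.13 and comr scored 0.0621 in the bin from 2.63 Mb. The cause was not tested. Stretches laid every 10 kb, the 50 kb sections, the longer complex and the removal of windows near absent rows were added after the data were seen. Unknown depth and combined replicates limit every value.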
